A study of Rattus norvegicus with 72 samples.

Results

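The genes described here are those of fatty acid oxidation, together with known targets of the nuclear receptor PPAR alpha, in the rat kidney that remains after the other one is removed. They were chosen from a list of 34 gene symbols, and a gene was taken where its symbol appeared in the deposited gene tables. That gave 33 genes of the 32545 in the tables. Eci2 was on the list and was not matched. The symbol Cyp4a2 stood at 2 gene identifiers, and the one with the higher total count was used.

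Male adult Sprague-Dawley rats had the right kidney removed, or a sham operation in which the vessels of the right kidney were freed and the kidney stayed in place. RNA was sequenced 24, 48 and 72 h later from S1 tubules, the first stretch of the proximal tubule, and from glomeruli, both microdissected, and from whole kidney. The 72 libraries form 18 groups of 4. The groups are nephrectomy at 24, 48 and 72 h and sham at 24, 48 and 72 h in each of the 3 tissues. All rats were operated on under anaesthesia and ate normal chow, and no genetic change is stated. Which kidney was sampled after sham surgery is not given in the labels. Segment RNA was amplified with the NuGEN Ovation kit and read from a single end, and whole-kidney RNA was made into stranded TruSeq libraries of 2 kit versions and read as pairs. Whether the libraries of a group stand for different animals is not stated in the labels. A kidney that is counted or numbered below is therefore a whole-kidney library, and not a stated separate animal. The tests therefore weigh differences against the scatter among libraries alone, part of which may be technical.

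Fatty acids enter a tubule cell through transporters such as Cd36, are bound by Fabp3 and activated by Acsl1, and reach the mitochondrial matrix through the carnitine shuttle, which Cpt1a controls. Beta oxidation then shortens the chain in repeated rounds, handing electrons to the flavoproteins Etfa and Etfb, while peroxisomes and the Cyp4a omega hydroxylases treat very long or unusual chains. PPAR alpha, encoded by Ppara, binds fatty acids and, with the coactivator Ppargc1a, raises transcription of many of these genes. Proximal tubule cells are known to rely on fatty acid oxidation for energy, whereas glomerular cells use it less.

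Promoters are shown for 4 members that the results turn on and that had an entry in the RefSeq promoter table of build GRCr8. Of the 34 symbols, 29 had one, and Acadl, Acaa2, Decr1, Cyp4a1 and Vnn1 did not. Each window runs from 250 bases before to 50 bases after the annotated gene start. The windows are Acadm at chr2:245542815-245543114, Hadh at chr2:222504397-222504696, Pex11a at chr1:143096442-143096741 and Cyp4a2 at chr5:134170859-134171158, all on the minus strand. Sequences run 5′ to 3′, and capitals mark matches on either strand to AGGNCA. This is a relaxed form of AGGTCA, the core of nuclear receptor sites, and of the 4 windows only that of Cyp4a2 holds AGGTCA itself.
Acadm: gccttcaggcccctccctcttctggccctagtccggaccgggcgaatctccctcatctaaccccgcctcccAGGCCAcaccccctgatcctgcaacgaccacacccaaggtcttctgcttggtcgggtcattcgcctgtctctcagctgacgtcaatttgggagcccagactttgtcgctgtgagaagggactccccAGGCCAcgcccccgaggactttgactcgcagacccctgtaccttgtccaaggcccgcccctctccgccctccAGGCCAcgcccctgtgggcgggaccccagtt
Hadh: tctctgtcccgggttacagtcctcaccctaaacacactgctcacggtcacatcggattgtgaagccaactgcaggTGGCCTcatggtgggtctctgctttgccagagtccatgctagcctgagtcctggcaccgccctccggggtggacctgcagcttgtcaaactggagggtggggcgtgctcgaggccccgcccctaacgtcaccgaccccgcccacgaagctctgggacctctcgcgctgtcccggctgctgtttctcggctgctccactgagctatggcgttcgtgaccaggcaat
Pex11a: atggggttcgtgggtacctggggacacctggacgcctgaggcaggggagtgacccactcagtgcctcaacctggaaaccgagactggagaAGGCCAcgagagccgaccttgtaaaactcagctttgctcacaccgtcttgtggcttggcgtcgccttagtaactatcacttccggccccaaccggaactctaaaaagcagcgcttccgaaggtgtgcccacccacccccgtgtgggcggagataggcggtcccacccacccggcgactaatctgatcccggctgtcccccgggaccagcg
Cyp4a2: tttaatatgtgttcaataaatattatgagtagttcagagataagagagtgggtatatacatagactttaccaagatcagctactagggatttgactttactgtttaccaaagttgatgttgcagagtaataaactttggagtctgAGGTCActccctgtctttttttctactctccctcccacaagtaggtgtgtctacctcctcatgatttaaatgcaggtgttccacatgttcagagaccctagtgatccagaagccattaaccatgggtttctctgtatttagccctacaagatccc
In Acadm, which encodes medium-chain acyl-CoA dehydrogenase, the matches began at positions -179, -53 and 19 from the gene start. Hadh had 1 match at -175, Pex11a 1 at -160 and Cyp4a2 1 at -105. Of the 29 windows, Eci2 included, 21 held AGGNCA, or 72.4%, against 57.1% of all 33469 windows in the table. The stricter AGGTCA was in 5 of them (Acadvl, Hadhb, Eci1, Eci2 and Cyp4a2), or 17.2%, against 16.2% of all windows. The direct repeat AGGTCANAGGTCA of PPAR sites was in 0 of the 29 and in 0.0538% of all windows, and its looser form AGGNCANAGGNCA, which includes it, was in 0 and in 0.415%. These counts describe letters within 300 bases and are no evidence of binding.

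Library totals over genes were 10.1 to 55.5 M counts (M, 1000000) in whole kidney, 6.403 to 87.4 M in S1 tubules and 2.64 to 62.0 M in glomeruli. The 37 mitochondrial genes took 36.0% to 80.6% of whole-kidney counts, 22.1% to 72.3% of S1 counts and 9.87% to 51.2% of glomerular counts. The S1 and glomerular libraries of sham rats at 24 h numbered 2 carried each other's markers, and both were left out of every fit reported here unless stated. Without them the mitochondrial share was 41.3% to 72.3% in S1 tubules and 9.87% to 22.9% in glomeruli. Totals were then 7.88 to 87.4 M in S1 tubules and 2.64 to 37.4 M in glomeruli. In whole kidney at 24 h, the libraries numbered 3 and 4 had mitochondrial shares of 71.0% and 74.2% after nephrectomy and 80.6% and 73.5% after sham surgery, while those numbered 1 and 2 had 66.3% and 64.6% after nephrectomy and 49.2% and 36.0% after sham surgery. After sham surgery the dissections went with their labels: all 9 early proximal tubule markers were higher and all 8 podocyte markers lower in S1 tubules than in glomeruli. Summed early proximal markers were still 893 to 2939 counts per 1000000 (CPM) in sham glomeruli, against 12000 to 18842 CPM in sham S1 tubules, each scaled within its segment. The part of that carried-over tubule RNA in the glomerular levels of the members was not tested. In bulk samples, fewer cells of a type and less RNA per cell cannot be told apart.

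The level of each member after sham surgery is first given per gene length, from the authors' deposited RPKM for segments and FPKM for whole kidney, over 11 S1, 11 glomerular and 12 whole-kidney libraries. In S1 tubules the highest median belonged to Cyp4a1, a fatty acid omega hydroxylase, with a lowest, median and highest RPKM of 87.1, 241 and 506. Next came Acaa2, the mitochondrial thiolase that closes each round of beta oxidation, with 112, 193 and 290 RPKM. Acat1, which handles acetoacetyl-CoA, had 80.6, 145 and 209 RPKM. These ranges overlap, so the order of the leading members is not set beyond the spread between libraries.

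Glomeruli ranked the members in another order. Etfb, the beta chain of the electron transfer flavoprotein, led there with 46.9, 91.5 and 160 RPKM, followed by Hadhb with 27.5, 62.7 and 73.3 RPKM and Etfa with 17.9, 54.3 and 67.4 RPKM. Hadhb and Hadha are the chains of the mitochondrial trifunctional protein. Cyp4a1 stood at rank 23 of 33 in glomeruli with a median of 5.599 RPKM, while it stood at rank 1 in S1 tubules. In whole kidney Cyp4a2, another omega hydroxylase, led with 16.02, 243 and 417 FPKM, ahead of Acadm with 55.0, 123 and 209 FPKM. Cyp4a2 stood at rank 14 in S1 tubules with 6.49, 45.1 and 93.9 RPKM. The segment and whole-kidney kits differ. How the counting shared reads among related Cyp4a genes was not tested, so Cyp4a1 and Cyp4a2 values are uncertain. The other Cyp4a2 identifier had a median of 56.2 RPKM in S1 tubules and 114 FPKM in whole kidney.

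**Figure D1:**
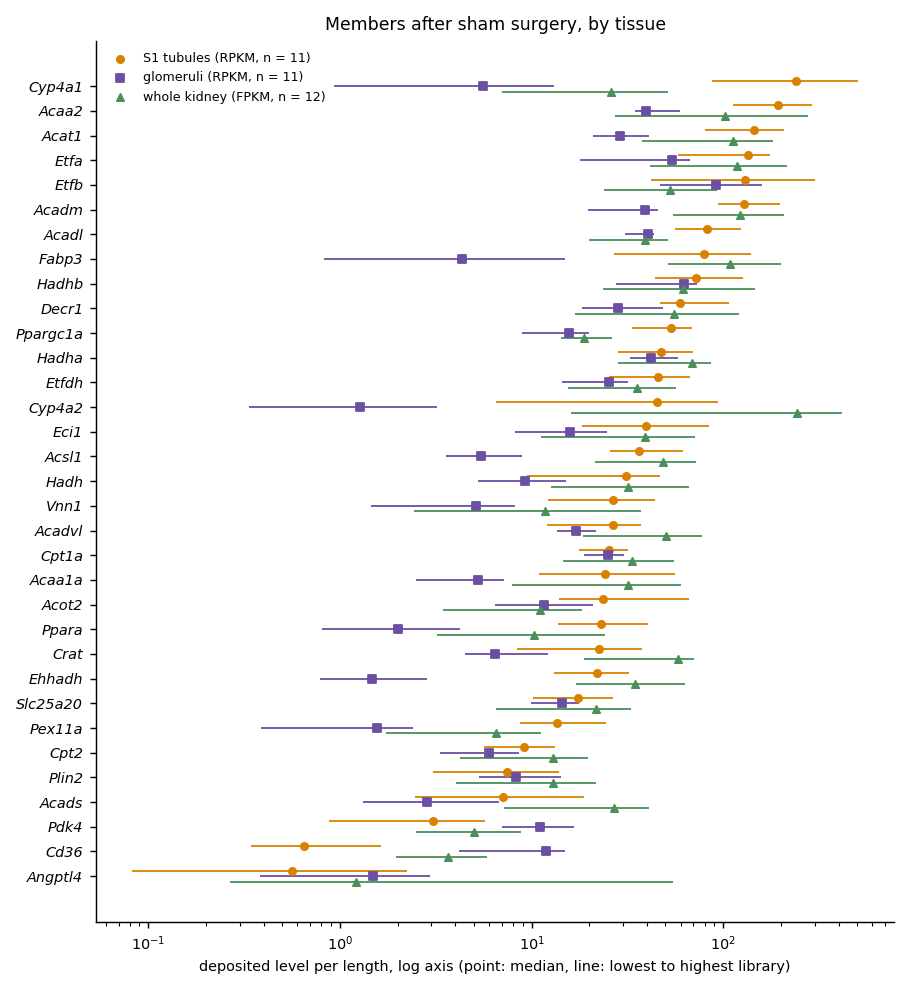
Deposited level per length of the 33 members after sham surgery, on a log axis, as RPKM in S1 tubules (circles, 11 libraries) and glomeruli (squares, 11) and as FPKM in whole kidney (triangles, 12); points are medians and lines run from the lowest to the highest library. Cyp4a1 has a median of 241 RPKM in S1 tubules and 5.599 RPKM in glomeruli, and Cd36 and Pdk4 are the members whose S1 range lies wholly below the glomerular one.

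At the low end stood Angptl4, a secreted inhibitor of lipoprotein lipase, with medians of 0.56 RPKM in S1 tubules, 1.48 RPKM in glomeruli and 1.21 FPKM in whole kidney. Cd36 had 0.35, 0.65 and 1.65 RPKM in S1 tubules, against 4.18, 11.9 and 15.0 RPKM in glomeruli. Pdk4, the kinase that shuts off pyruvate dehydrogenase, had 0.88, 3.05 and 5.69 RPKM in S1 tubules and 7.05, 11.1 and 16.6 RPKM in glomeruli. For these 2 genes every sham S1 library lay below every sham glomerular library. Among genes tested, 27.1% had such separation with S1 lower and 2.78% with S1 higher. With S1 higher there were 14 members: Fabp3, Acsl1, Acadl, Acadm, Acaa2, Ehhadh, Acaa1a, Pex11a, Acat1, Cyp4a1, Cyp4a2, Ppara, Ppargc1a and Vnn1. The ranges of the remaining 17 overlapped.

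Relative to other genes, S1 tubules held far more RNA of this pathway than glomeruli. In the joint edgeR fit of 46 segment libraries, scaled by TMM, 30 of 33 members were higher in sham S1 tubules than in sham glomeruli (18.6% of all genes tested were) and 1 was lower (21.1% of all genes). The median log2 fold change was 3.04 over the members, against -0.69 over all genes tested. The member that was lower was Cd36, at -1.92 ± 0.42 (SE) with an adjusted p of 0.00018. Pdk4 at 0.12 ± 0.36 and Angptl4 at 0.65 ± 0.47 did not pass, with adjusted p of 0.78 and 0.25.

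By role, the omega hydroxylases differed most, with log2 fold changes of 7.19 ± 0.42 for Cyp4a1 and 6.82 ± 0.49 for Cyp4a2. All 5 auxiliary genes of unsaturated and peroxisomal oxidation were higher in S1 tubules. They were led by Ehhadh, the peroxisomal bifunctional enzyme, at 5.48 ± 0.35 and by Pex11a, which elongates and divides peroxisomes, at 4.97 ± 0.29. Both regulators were higher, Ppara by 5.38 ± 0.30 and Ppargc1a by 3.51 ± 0.24. Of uptake and activation, Fabp3 was higher by 5.51 ± 0.49 and Acsl1 by 4.50 ± 0.29. The 8 genes of mitochondrial beta oxidation were all higher, from 1.84 for Hadha to 3.82 for Acaa2, and so were the 3 electron transfer genes, from 2.31 for Etfb to 3.13 for Etfa. The carnitine shuttle genes ran from 1.76 ± 0.21 for Cpt1a to 3.36 ± 0.38 for Crat, which exchanges short acyl groups, a range that overlaps those of the 2 preceding roles.

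How far S1 tubules stand above glomeruli depends on the scaling. With library totals only, the scale of the deposited RPKM, 24 members were higher and 3 lower (Angptl4, Cd36 and Pdk4), and the median of all genes moved to -2.37. The members' median was then 1.32. On that scale Cpt1a was at -0.01, Plin2, a lipid droplet coat protein, at -0.26, Angptl4 at -1.04 and Pdk4 at -1.64, so the direction of these 4 flips. Pdk4 was also below 0 with RLE factors and with DESeq2, at -0.17 in both, with totals counted without mitochondrial genes, at -0.59, and with the replicate block, at -0.0019. Angptl4 was at -0.0031 with totals counted without mitochondrial genes. Cyp4a1 stayed at 5.41 and Acadm at 1.91. With library totals counted without mitochondrial genes, 30 were higher and 1, Cd36, was lower.

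**Figure D2:**
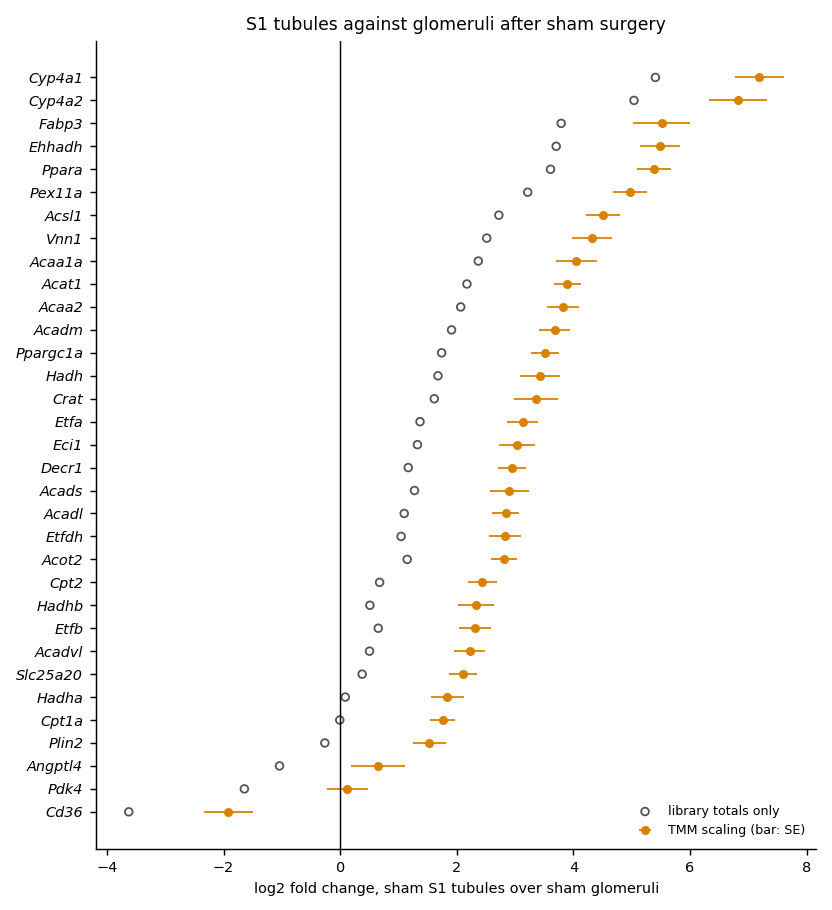
Log2 fold change of sham S1 tubules over sham glomeruli for the 33 members, with TMM scaling (filled, bar: SE) and with library totals only (open). With TMM scaling only Cd36, at -1.92, lies below 0, and with library totals only Cd36, Pdk4, Angptl4, Plin2 and Cpt1a do.

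The main comparison asked how the members differ in the remaining kidney after nephrectomy and after sham surgery at each time. In whole kidney, 4 of 33 members were lower after nephrectomy over the mean of the 3 times (1.17% of all 15678 genes tested were lower) and 0 were higher (1.69% of all genes). They were Vnn1, Hadh, Cyp4a1 and Acadm. Most other members leaned the same way without passing: 29 of 33 log2 fold changes were below 0, against 51.4% of all genes, and their median was -0.17, against -0.01 over all genes. With an unadjusted p under 0.05, 11 members were lower (9.34% of all genes) and 0 higher. In S1 tubules and in glomeruli edgeR called 0 members at any time or over their mean, and 0 genes of any kind (0%). DESeq2 called 1 member, Pex11a, in S1 tubules at 48 h, among 10 genes, and at 72 h, among 759 genes, and 0 in glomeruli.

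**Figure D3:**
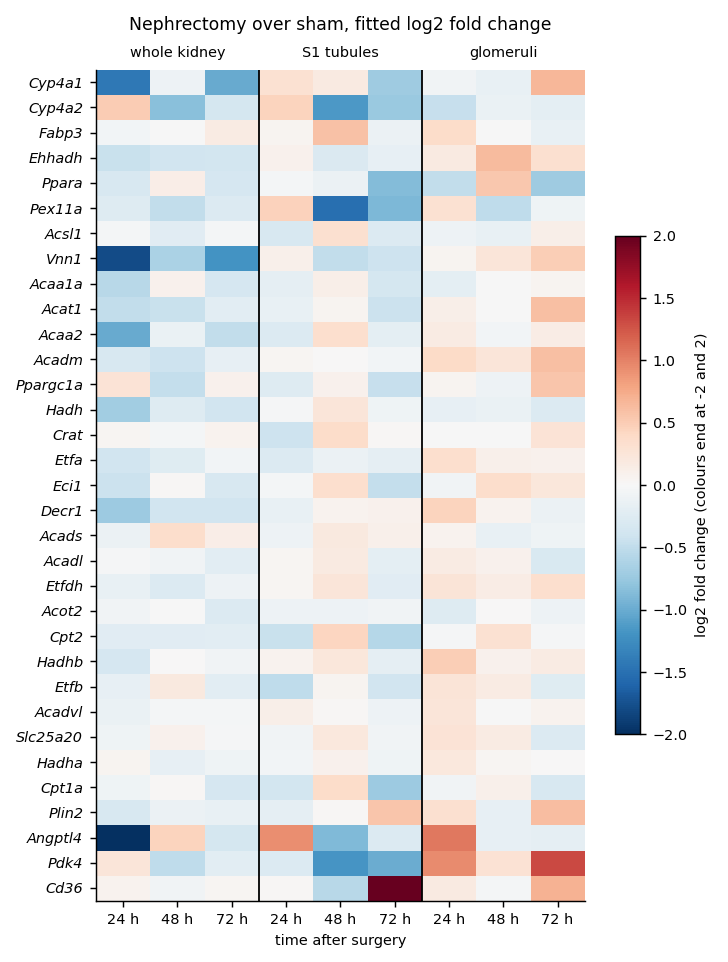
Fitted log2 fold change of nephrectomy over sham for the 33 members, by tissue and time, with the members ordered by their S1 over glomeruli difference. Blue cells predominate in whole kidney, where Vnn1 is at -1.79 at 24 h, and the dark red cell of Cd36 in S1 tubules at 72 h is 2.98.

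Vnn1, a pantetheinase that releases a coenzyme A precursor and is a PPAR alpha target, differed most. At 24 h it stood at 10.7, 11.7, 9.40 and 6.10 CPM in nephrectomy kidneys, against 78.6, 21.6, 13.3 and 18.6 CPM in sham kidneys. At 48 h the values were 15.6, 14.9, 14.2 and 10.9 CPM after nephrectomy, against 26.9, 34.4, 8.75 and 16.02 CPM after sham surgery. At 72 h they were 14.7, 9.74, 14.5 and 9.62 CPM after nephrectomy, against 15.4, 32.9, 36.2 and 26.8 CPM after sham surgery. Every nephrectomy kidney lay below every sham kidney at 24 and at 72 h, and 1 sham kidney lay below all 4 nephrectomy kidneys at 48 h. The log2 fold change over the 3 times was -1.21 ± 0.25 with an adjusted p of 0.0149. Without the sham kidney of 78.6 CPM it was -0.92 with an adjusted p of 0.0140, and it passed whichever of the 24 kidneys was left out. All 12 nephrectomy kidneys were below the sham mean of their own time. The same held for Acadm, Hadh, Decr1 and Pex11a, and for Cpt2, Acat1 and Plin2, which did not pass. The share of all genes with this pattern was not counted.

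Cyp4a1 fell too. After nephrectomy it was 19.7, 20.6, 18.5 and 7.16 CPM at 24 h, against 64.6, 53.2, 25.3 and 34.7 CPM after sham surgery. Its 48 h values were 40.6, 38.8, 23.4 and 23.6 CPM in nephrectomy kidneys and 38.1, 49.7, 14.6 and 32.4 CPM in sham kidneys. Its 72 h values were 18.8, 21.4, 26.7 and 20.5 CPM in nephrectomy kidneys, against 32.2, 49.1, 54.5 and 39.9 CPM in sham kidneys. The groups were apart at 24 and 72 h and mixed at 48 h. The log2 fold change over the 3 times was -0.85 ± 0.20 with an adjusted p of 0.0222, and it too passed with any 1 kidney left out.

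Hadh, the hydroxyacyl-CoA dehydrogenase for short and medium chains, was 40.3, 38.3, 37.7 and 40.03 CPM in nephrectomy kidneys at 24 h, against 92.9, 49.8, 46.1 and 63.8 CPM in sham kidneys. At 48 h it was 47.5, 46.1, 37.6 and 40.4 CPM after nephrectomy, against 52.6, 54.8, 35.3 and 61.7 CPM after sham surgery. At 72 h it was 38.8, 34.9, 33.2 and 31.5 CPM after nephrectomy, against 48.2, 41.1, 42.98 and 47.5 CPM after sham surgery. All nephrectomy kidneys were below all sham kidneys at 24 and 72 h, with 1 low sham kidney at 48 h. Over the 3 times the log2 fold change was -0.44 ± 0.10 with an adjusted p of 0.0211.

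Acadm, whose promoter holds 3 matches to the relaxed AGGNCA and none to AGGTCA, is the most abundant dehydrogenase among the members in whole kidney. It was 235.8, 234.3, 195.1 and 235.5 CPM in nephrectomy kidneys at 24 h, against 345.6, 215.5, 236.4 and 326.04 CPM in sham kidneys. At 48 h the values were 199.7, 205.2, 177.6 and 168.9 CPM after nephrectomy, against 237.8, 249.2, 252.9 and 256.8 CPM after sham surgery. At 72 h they were 182.8, 178.4, 178.3 and 177.4 CPM after nephrectomy, against 203.9, 200.2, 196.5 and 199.1 CPM after sham surgery. The difference was small and tight: the groups were apart at 48 and 72 h, and at 24 h a single sham kidney lay among those of nephrectomy. The log2 fold change was -0.29 ± 0.07 over the 3 times, with an adjusted p of 0.0322. It passed in 11 of the 24 fits that left out 1 kidney, with an adjusted p of up to 0.0634 in the others.

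**Figure D4:**
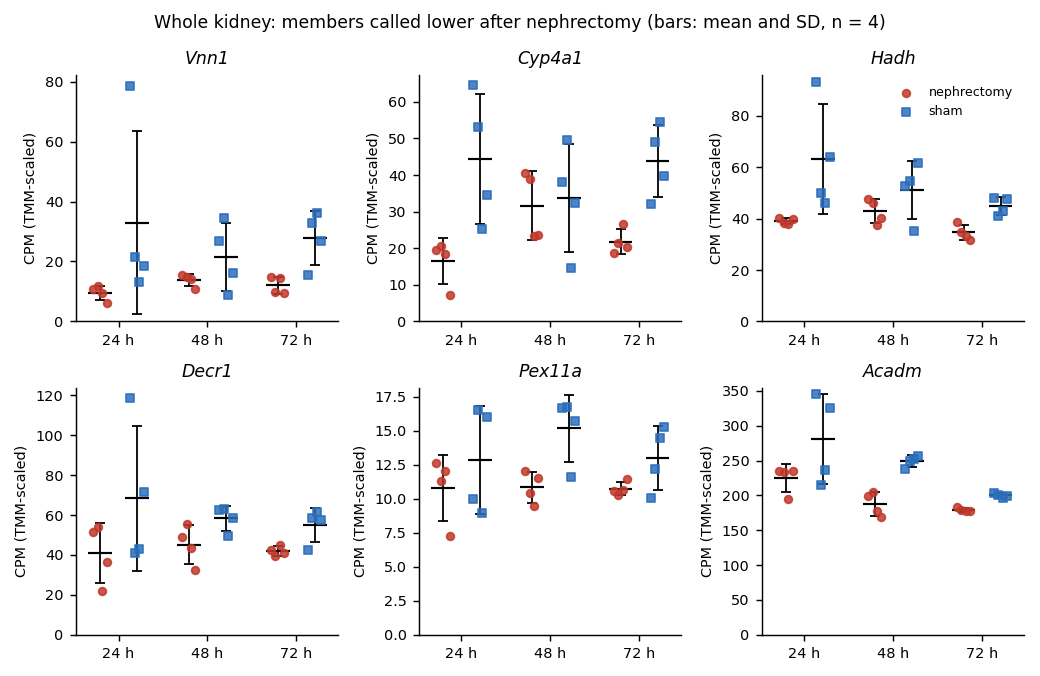
CPM by library in whole kidney for the 6 members called lower over the mean of the 3 times or over 48 and 72 h, with nephrectomy (circles) left of sham (squares) at each time; bars give the mean and SD of 4 libraries. Acadm at 72 h lies at 177.4 to 182.8 CPM after nephrectomy and at 196.5 to 203.9 CPM after sham surgery, and Vnn1 at 24 h shows the sham kidney at 78.6 CPM.

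With the 16 kidneys of 48 and 72 h fitted alone, 4 of 33 members were again lower (2.11% of 15455 genes) and 0 higher (2.53%). Acadm was at -0.28 ± 0.05 with an adjusted p of 0.0262 and Vnn1 at -0.91 ± 0.23 with 0.0373. They were joined by Pex11a at -0.38 ± 0.10 with 0.0366 and Decr1, the reductase for polyunsaturated chains, at -0.38 ± 0.10 with 0.0429. Hadh had an adjusted p of 0.0676 and Cyp4a1 of 0.112 there. The members' median was -0.14, against 0.01 over all genes, and 28 of 33 were below 0 (48.7% of all genes). With an unadjusted p under 0.05, 14 were lower and 1, Acads, was higher (12.1% of all genes each way). When the same contrast was taken in the fit of all 24 kidneys, 0 members passed. With 1 kidney left out, 0 to 6 passed, and 0 without nephrectomy kidney 3 at 48 h, nephrectomy kidney 3 or 4 at 72 h, or sham kidney 2 at 72 h.

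Pex11a was 12.03, 10.4, 9.43 and 11.5 CPM in nephrectomy kidneys at 48 h, against 16.7, 16.7, 11.6 and 15.7 CPM in sham kidneys. At 72 h it was 10.6, 10.3, 10.6 and 11.4 CPM after nephrectomy, against 10.1, 12.2, 14.5 and 15.3 CPM after sham surgery. At 24 h it was 12.6, 11.3, 12.001 and 7.27 CPM after nephrectomy, against 9.95, 16.6, 8.93 and 16.01 CPM after sham surgery, with the groups mixed. Decr1 was 49.2, 55.3, 43.4 and 32.3 CPM in nephrectomy kidneys at 48 h, against 62.7, 63.02, 49.5 and 58.7 CPM in sham kidneys. At 72 h Decr1 was 42.3, 39.4, 45.1 and 41.2 CPM after nephrectomy, against 42.4, 58.3, 61.6 and 57.6 CPM after sham surgery. At each of these times 1 sham kidney of each gene lay below the highest nephrectomy value. Decr1 at 24 h was 51.7, 54.03, 21.98 and 36.4 CPM after nephrectomy, against 118.9, 40.98, 42.9 and 71.3 CPM after sham surgery, again mixed.

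At single times edgeR called 0 members in whole kidney (0.147% of all genes were lower and 0.0893% higher at 24 h, 0% either way at 48 h, and 0% lower and 0.00638% higher at 72 h). Members with an unadjusted p under 0.05 and a lower value numbered 9 at 24 h, 3 at 48 h and 4 at 72 h, against 8.03%, 4.25% and 2.2% of all genes. Groups that did not overlap, with nephrectomy lower, were found for 3 members at 24 h (Hadh, Cyp4a1 and Vnn1), 3 at 48 h (Acadm, Acat1 and Cyp4a2) and 5 at 72 h (Acadl, Acadm, Hadh, Cyp4a1 and Vnn1), against 1.62%, 3.81% and 5.43% of all genes. The other Cyp4a2 identifier overlapped at 48 h, with 102 to 161 CPM after nephrectomy, against 139 to 217 CPM after sham surgery. For 0 members did all nephrectomy kidneys lie above sham, as 1.69%, 3.43% and 5.33% of genes did at 24, 48 and 72 h. DESeq2 called Cyp4a1, Hadh and Vnn1 lower at 24 h, among 307 genes of any kind, and 0 members at 48 or 72 h, among 166 and 7 genes. In edgeR, without sham kidney 2 at 24 h Hadh and Vnn1 passed at that time, without sham kidney 3 Angptl4, Cyp4a1, Hadh and Vnn1, and without sham kidney 4 Cyp4a1 and Vnn1. The members' median was -0.23 at 24 h, -0.12 at 48 h and -0.21 at 72 h, and with library totals only the 48 h median flips to 0.10, while that of all genes is then 0.27, and the 24 h median is -0.62. The 24 h median was -0.08 without sham kidney 1 and -0.04 with the proximal marker covariate described further on. The 48 h median was -0.05 without nephrectomy kidney 4 and -0.19 without sham kidney 3, and the 72 h median -0.14 with the covariate.

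By role over the 3 times, the 5 auxiliary genes had a median log2 fold change of -0.34, from -0.50 for Decr1 to -0.25 for Eci1, with 0 past the threshold. Of the 8 mitochondrial beta oxidation genes 2 fell, Hadh and Acadm, and the rest ran from -0.54 for Acaa2 to 0.12 for Acads, the short-chain dehydrogenase. The 4 carnitine shuttle genes lay between -0.22 for Cpt2 and 0.02 for Crat, and the 3 uptake and activation genes between -0.10 for Acsl1 and 0.03 for Fabp3. The 3 electron transfer genes were between -0.22 and -0.06. Acat1, a gene at the acetyl-CoA end, had -0.39 ± 0.11 with an adjusted p of 0.0622, and Acot2, a mitochondrial thioesterase, -0.12 ± 0.09. Angptl4, at -0.91 ± 0.47, rested on 1 sham kidney at 24 h with 65.2 CPM, when the other 23 kidneys had 1.07 to 3.80 CPM.

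Neither regulator passed. Ppara was 15.1, 15.8, 14.9 and 11.5 CPM in nephrectomy kidneys at 24 h, against 16.6, 28.9, 13.4 and 12.5 CPM in sham kidneys, and at 72 h 14.6, 16.7, 15.6 and 15.9 CPM after nephrectomy, against 15.7, 26.8, 18.5 and 18.3 CPM after sham surgery. At 48 h it was 26.9, 29.3, 18.96 and 16.3 CPM after nephrectomy, against 15.5, 26.8, 21.6 and 19.7 CPM after sham surgery. Over the 3 times Ppara was at -0.17 ± 0.14 with an adjusted p of 0.533. Ppargc1a was 83.03, 68.3, 88.9 and 79.5 CPM in nephrectomy kidneys at 24 h, against 43.2, 45.4, 85.7 and 88.4 CPM in sham kidneys. Its sham values at 24 h split between libraries 1 and 2, which were low, and libraries 3 and 4, which were high. At 48 h it was 34.5, 38.01, 27.3 and 50.9 CPM after nephrectomy, against 48.2, 33.96, 61.9 and 65.2 CPM after sham surgery, and at 72 h 52.02, 48.05, 42.2 and 45.6 CPM after nephrectomy, against 60.4, 44.8, 38.4 and 34.4 CPM after sham surgery. Its log2 fold change over the 3 times was -0.04 ± 0.14.

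Cpt1a, the entry step of the shuttle, was 129.3, 123.6, 113.7 and 159.7 CPM in nephrectomy kidneys at 24 h, against 101.6, 151.1, 138.8 and 167.2 CPM in sham kidneys. At 48 h it was 135.2, 161.2, 150.1 and 126.7 CPM after nephrectomy, against 136.3, 145.9, 145.1 and 134.995 CPM after sham surgery, and at 72 h 147.7, 123.7, 137.8 and 129.99 CPM after nephrectomy, against 144.5, 182.8, 184.8 and 166.98 CPM after sham surgery. The groups overlapped at all 3 times, and the log2 fold change over them was -0.13 ± 0.08 with an adjusted p of 0.413. Pdk4 was low throughout, with 5.78 to 11.1 CPM after nephrectomy, against 4.71 to 10.2 CPM after sham surgery at 24 h, 4.04 to 7.63 CPM after nephrectomy, against 5.73 to 8.95 CPM after sham surgery at 48 h, and 4.58 to 11.3 CPM after nephrectomy, against 6.57 to 11.5 CPM after sham surgery at 72 h. Its log2 fold change was -0.16 ± 0.17.

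Early proximal tubule markers, which are not members, lay on the same side of sham as the members in whole kidney. Their summed level was 4122 to 4672 CPM after nephrectomy, against 5742 to 8001 CPM after sham surgery at 24 h, 4433 to 6105 CPM after nephrectomy, against 4284 to 6496 CPM after sham surgery at 48 h, and 4671 to 5753 CPM after nephrectomy, against 5636 to 7960 CPM after sham surgery at 72 h. Over the 3 times 0 of 9 passed, all 9 were below 0 and their median was -0.64, and over 48 and 72 h alone it was -0.17. None of them was at 0 in any group. Slc5a2, an S1 gene, was nonetheless near 0 in the 24 h kidneys numbered 3 and 4. By number, the nephrectomy kidneys held 20.8, 19.9, 0.72 and 0.38 CPM of it, while the sham ones held 282, 128, 0.60 and 1.86 CPM. For Nphs1, a podocyte gene, nephrectomy kidneys had 37.4, 38.1, 0.14 and 2.54 CPM, where sham ones had 13.5, 28.5, 3.87 and 21.9 CPM. The fit without the 24 h kidneys numbered 3 and 4 is given further on, and the cause of this split was not tested. With the mean of the early proximal markers as a covariate, an alternative added after the data were seen, 0 members passed over the 3 times. The log2 fold changes were then -0.74 for Vnn1, -0.52 for Cyp4a1, -0.27 for Acadm and -0.35 for Hadh, with adjusted p of 0.0764, 0.0798, 0.0912 and 0.0960 in that order. That of Acadm was -0.29 without the covariate. Over 48 and 72 h Acadm at -0.28 and Pex11a at -0.32 still passed with the covariate. Summed immune markers at 24 h were 209 to 285 CPM after nephrectomy, against 319 to 456 CPM after sham surgery, so they did not overlap either. Late proximal markers had a median sum over all times of 4034 CPM after nephrectomy, against 4527 CPM after sham surgery. Loop and distal markers went the other way, at 4112 CPM after nephrectomy, against 3457 CPM after sham surgery. So did collecting duct markers, at 418 against 377 CPM, and the ranges of all these lists overlapped. Pck1, an enzyme of glucose synthesis that proximal tubule and fat cells both express, was 278 to 498 CPM after nephrectomy at 72 h, against 518 to 1272 CPM after sham surgery, while the other 7 adipocyte markers summed to 35.4 to 79.3 CPM after nephrectomy and to 36.7 to 52.7 CPM after sham surgery. The part of tubule or immune cell content in the falls was not tested.

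The 24 h result changed with the kidneys numbered 3 and 4. Without them, leaving 2 kidneys a group at 24 h, 9 members were lower and 2 higher at that time, against 10.2% and 6.22% of 16122 genes. Those lower were Vnn1 at -2.17, Cyp4a1 at -1.56, Acaa2 at -1.26, Hadh at -0.87, Acaa1a at -0.85, Acads at -0.80, Etfb at -0.75, Hadhb at -0.63 and Angptl4 at -3.61. The last rests on the 1 sham kidney at 65.2 CPM, since the other sham kidney, at 2.09 CPM, lay below both nephrectomy kidneys, at 2.82 and 2.72 CPM. Pdk4 was higher at 1.14 and Acadl, the long-chain dehydrogenase, at 0.67. Over the 3 times 5 members were then lower, against 2.85% of genes. Acadm at 24 h was at -0.26 without them and did not pass.

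In S1 tubules Pex11a had the smallest p-value among the members. At 48 h it was 14.5, 13.7, 12.6 and 11.3 CPM in nephrectomy tubules, against 50.1, 42.3, 25.5 and 30.2 CPM in sham tubules. At 72 h it was 22.6, 16.9, 20.99 and 21.7 CPM after nephrectomy, against 23.7, 35.6, 39.1 and 56.1 CPM after sham surgery. At 24 h the order was the other one, with 35.5, 34.4, 38.9 and 30.9 CPM after nephrectomy, against 18.9, 28.6 and 28.4 CPM after sham surgery. The groups did not overlap at any of the 3 times. Its log2 fold change was 0.46 ± 0.29 at 24 h, -1.51 ± 0.27 at 48 h and -0.90 ± 0.26 at 72 h. The adjusted p over all genes was 0.145 at 48 h and 0.279 at 72 h, so neither passed, and 0.496 for the difference between times. With DESeq2 it passed at 48 h, at 72 h and for the difference between times, and with RLE factors in edgeR at 48 h. The unadjusted p in edgeR was 7.9e-06 at 48 h. Among S1 libraries, 2.81% of genes at 48 h and 0.495% at 72 h had all nephrectomy values below sham, and 1.81% at 24 h had them above.

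Pdk4 at 48 h was the other member whose S1 nephrectomy libraries all lay below sham, with 2.88, 3.01, 1.51 and 1.58 CPM after nephrectomy, against 7.11, 5.79, 4.04 and 3.57 CPM after sham surgery. At 72 h it was Ppara, with 30.6, 5.93, 32.6 and 28.8 CPM after nephrectomy, against 35.6, 76.8, 33.1 and 33.6 CPM after sham surgery. Fabp3 at 48 h lay above sham, with 96.2, 95.3, 107.9 and 91.9 CPM after nephrectomy, against 65.7, 60.4, 63.6 and 71.2 CPM after sham surgery. Hadhb was above as well, at 187 ± 2.66 CPM after nephrectomy and 159 ± 21.6 CPM after sham surgery (SD, n = 4 each), where 2.92% of genes were. None of these passed the test over all genes. Cd36 at 72 h had a log2 fold change of 2.98 ± 0.97, which came from 1 nephrectomy library at 47.1 CPM when the other 3 had 0.33 to 1.71 CPM and sham 0.92 to 2.35 CPM. That library, number 2, stood apart: only 8.05% of its uniquely placed reads fell in genes, for a total of 7.88 M. In it Fabp3 was 3.16 CPM and Ppara 5.93 CPM, each the lowest of its group.

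Over the 3 times 23 of 33 members were below 0 in S1 tubules (44.8% of all genes), with a median of -0.08, against 0.03 over all genes, and with the sham 24 h library numbered 2 included it flips to 0.05. With 1 library left out that median ran from -0.20 to 0.01. With an unadjusted p under 0.05, 2 members were lower (0.61% of genes), Pex11a and Pdk4. By time the median was -0.05 at 24 h, 0.08 at 48 h and -0.20 at 72 h. With 1 library left out it ran from -0.20 to 0.10 at 24 h and from -0.03 to 0.20 at 48 h. At 72 h it was -0.75 without nephrectomy library 1 and 0.01 without nephrectomy library 2, so none of the 3 kept its direction. That at 24 h also flips to 0.01 with RLE factors. At 72 h, where the median of all genes was 0.13, 4 members were lower at an unadjusted p under 0.05 (1.25% of genes) and 1, Cd36, was higher (12% of genes), and at 48 h 1 was lower (1.58%). Summed early proximal markers at 72 h were 8555 to 17545 CPM after nephrectomy, against 14835 to 18397 CPM after sham surgery, and Pck1 was 589 to 1400 CPM after nephrectomy, against 2553 to 5169 CPM after sham surgery. The other 7 adipocyte markers summed to 3.34 to 13.8 CPM after nephrectomy, against 5.05 to 7.69 CPM after sham surgery. The part of these markers in the 72 h values was not tested. Ppara was at 27.6 to 56.3 CPM after nephrectomy, against 26.6 to 50.6 CPM after sham surgery at 24 h, and at 39.3 to 69.0 CPM after nephrectomy, against 40.8 to 76.5 CPM after sham surgery at 48 h. Ppargc1a lay between 74.1 and 186 CPM after nephrectomy and between 92.6 and 210 CPM after sham surgery over the 3 times. Acadm lay between 142 and 412 CPM after nephrectomy and between 166 and 339 CPM after sham surgery. The spread between libraries was larger here than in whole kidney: the common biological coefficient of variation was 0.713 in S1 tubules, 0.625 in glomeruli and 0.248 in whole kidney.

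In glomeruli Pdk4 had the smallest p-value over the 3 times among the members. At 72 h it was 39.9, 47.03, 5.70 and 89.4 CPM after nephrectomy, against 16.3, 22.2, 18.3 and 16.4 CPM after sham surgery, so 3 libraries lay above and 1 below all sham values. In the low library 2.64 M reads, or 2.92% of those placed uniquely, fell in genes. At 24 h it was 16.9, 29.8, 10.9 and 37.6 CPM after nephrectomy, against 9.47, 11.5 and 16.2 CPM after sham surgery. At 48 h it was 15.96, 25.7, 29.5 and 19.5 CPM after nephrectomy, against 14.2, 23.97, 17.8 and 18.1 CPM after sham surgery. The log2 fold change over the 3 times was 0.85 ± 0.28, with an unadjusted p of 0.00483 and an adjusted p of 1.00. Acadm was at 0.41 ± 0.16 with an adjusted p of 1.00, and 11 of the 12 nephrectomy libraries exceeded the mean of sham at the same hour, a count not made over all genes. These 2 members had an unadjusted p under 0.05 (1.12% of genes), and at 72 h 3 did (1.98%). Ppargc1a at 72 h lay wholly above sham, with 41.1, 59.9, 47.9 and 50.95 CPM after nephrectomy, against 35.99, 36.7, 26.6 and 36.5 CPM after sham surgery, as did 0.317% of genes. Over the 3 times 23 of 33 members were above 0 (49.5% of genes), with a median of 0.09 that turns to -0.00345 with library totals only and to -0.55 with the mixed sham library included. Of the 9 early proximal markers 8 were above 0 there, with a median of 0.16 and sums of 910 to 3413 CPM after nephrectomy, against 893 to 2939 CPM after sham surgery, and their part in the members' values was not tested.

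**Figure D5:**
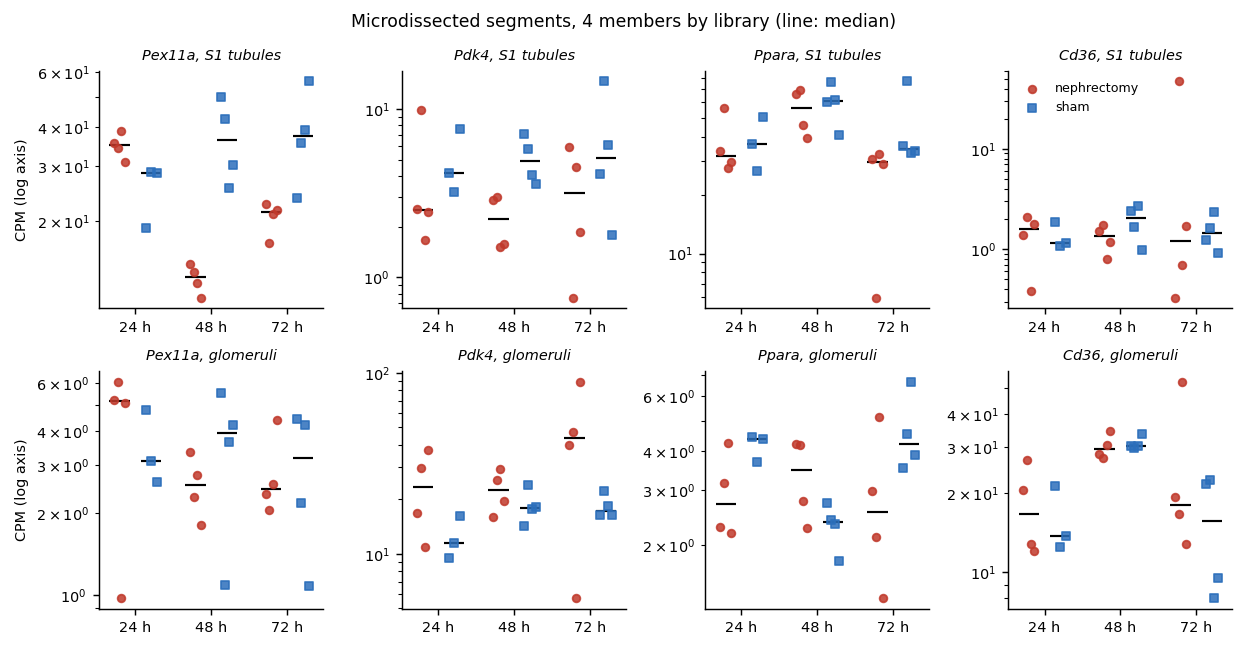
CPM by library on log axes for Pex11a, Pdk4, Ppara and Cd36 in S1 tubules (top) and glomeruli (bottom), nephrectomy (circles) left of sham (squares) at each time, with the median as a line and the mixed sham libraries at 24 h left out. Pex11a in S1 tubules at 48 h lies at 11.3 to 14.5 CPM after nephrectomy and at 25.5 to 50.1 CPM after sham surgery, and Cd36 in S1 tubules at 72 h has 1 nephrectomy library at 47.1 CPM.

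Whether the nephrectomy difference itself differed between S1 tubules and glomeruli was tested by an interaction, S1 minus glomeruli. It passed for 0 of 33 members and for 0 of 24488 genes. Pdk4 came nearest among the members at -1.60 ± 0.49, with an unadjusted p of 0.00217 and an adjusted p of 1.00, the segments' own values being -0.81 in S1 tubules and 0.85 in glomeruli. It was the only member with an unadjusted p under 0.05 (0.927% of genes were lower at that level). Of the 33 members 27 were below 0 (47.3% of genes), with a median of -0.15 that turns to 0.57 with the mixed sham libraries included. DESeq2 also called 0 members. By edgeR, 0 members passed in any tissue for a nephrectomy difference that varied between times (0.0191% of genes passed in whole kidney, 0.0109% in S1 tubules and 0.00446% in glomeruli). These misses do not show that the segments or times respond alike.

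Other genes of the pathway were taken from lists of transporters, enzymes, receptors and PPAR targets, of which 127 of 134 symbols were matched. In whole kidney over the 3 times 3 of 121 were higher and 7 lower, where 1.69% and 1.17% of all genes were. Abcd3, a peroxisomal transporter, was at -0.30 ± 0.08 with an adjusted p of 0.0410. Acsm1, a medium-chain acyl-CoA synthetase, was at -0.72 ± 0.15, and Slc27a2, a very-long-chain transporter and synthetase, at -0.48 ± 0.12. Acsl5, another acyl-CoA synthetase, was higher at 0.29 ± 0.06, as was the ketone body enzyme Bdh1 at 0.42 ± 0.11. Acad11 at -0.27 ± 0.07, Gk, glycerol kinase, at -0.53 ± 0.13 and Mgll, monoglyceride lipase, at -0.36 ± 0.09 were lower, and Scd2, a desaturase, was higher at 0.54 ± 0.13. Over 48 and 72 h alone 3 of 120 were higher and 8 lower, where 2.53% and 2.11% of all genes were. None of the 117 tested in S1 tubules or of the 122 in glomeruli passed. After sham surgery 74 of 123 were higher in S1 tubules than in glomeruli and 20 lower, where 18.6% and 21.1% of all genes were.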

How the data were processed

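Gene counts and RPKM (segments) or FPKM (whole kidney) were deposited by the authors in 4 tables, with all columns mapped to libraries. Per the submitters' processing notes, Trimmomatic 0.32, STAR 2.4.0.1, SAMtools and HTSeq were used. No source used here names the genome build, annotation or strand setting. The authors' deposited RPKM and FPKM were proportional to count over library total for each member. Counts were tested with edgeR 4.0.16 (R 4.3.3) by quasi-likelihood F tests with TMM factors, filterByExpr with a minimum count of 10, library totals over all genes, 6 groups a tissue and Benjamini-Hochberg adjustment over all genes tested, with a threshold of 0.05. All 33 members passed that filter in each tissue. Segments were also fitted together for S1 tubules against glomeruli. Rows of the count tables that name no gene stayed out of totals. Those for reads placed in no gene or ambiguously were 11.6% to 97.1% of a library's uniquely placed reads. CPM are counts per 1000000, TMM-scaled within a tissue. SE is the log2 fold change over the root of F.

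Libraries of a group were not copies of each other (smallest chi-square per degree of freedom 5.99 over 102 pairs). The edgeR fit was checked on simulated counts with large set changes. That check does not show how often smaller differences would be found in the libraries themselves. DESeq2 1.42.0 and other settings were alternatives. Members and lists were chosen with earlier results of these data known. All members may be named. Those past the threshold in a nephrectomy comparison, and Ppara, Ppargc1a, Cpt1a, Pdk4 and Acadm, are given by library, and up to 3 genes with the smallest p from each other list. Genome annotation beyond promoter windows was not used here. 1 gene of the pathway lists is counted and not reported here by name.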

Additional observations from a re-analysis of the deposited data

Results flagged for a closer look

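Single libraries were compared with the other 3 of their group for the mean log2 CPM of the members and for the 10 members given by library, in 18 groups. A library was picked out when its gap to the nearest other took up more of the range of the group than Dixon's critical value for 4 samples. This gave 20 of 198 tests, where chance gives about 5%. The 198 include the mixed sham 24 h libraries left out of the fits. The glomerular one was picked out for the mean and for every member given by library except Pdk4. The 20 are therefore no rate for the libraries in the fits, and the other flags are not shown to exceed chance.

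The glomerular library of sham rats at 24 h numbered 2 accounted for 9 gene values and for the mean log2 CPM of 7.597, when the other 3 lay between 3.94 and 4.42. It held 1475 CPM of Cyp4a1, 1237 CPM of Acadm, 528 CPM of Cpt1a, 506 CPM of Ppargc1a and 356 CPM of Decr1. It also held 241 CPM of Vnn1, 217 CPM of Hadh, 217 CPM of Ppara and 97.3 CPM of Pex11a. That library carried tubule markers and was left out of the fits.

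In S1 tubules the mean log2 CPM was 5.88 in nephrectomy library 4 at 48 h, above 5.73 to 5.75 in the others, and 6.05 in sham library 2 at 72 h, above 5.75 to 5.78. Ppara in S1 tubules at 72 h was 5.93 CPM in nephrectomy library 2, below 28.8 to 32.6 CPM in the others, and 76.8 CPM in sham library 2, above 33.1 to 35.6 CPM. Pdk4 was 9.83 CPM in S1 nephrectomy library 2 at 24 h, above 1.68 to 2.55 CPM. In glomeruli Cyp4a1 was 67.8 CPM in nephrectomy library 3 at 72 h, above 5.59 to 10.7 CPM, and Ppargc1a was 26.6 CPM in sham library 3 at 72 h, below 36.0 to 36.7 CPM. In whole kidney at 24 h Cyp4a1 was 7.16 CPM in nephrectomy library 4, Acadm was 195 CPM in nephrectomy library 3, and Vnn1 was 78.6 CPM in sham library 1.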

How the results depend on the processing

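Counts are of members past the threshold, and the cause of each change was not tested unless stated. Over the mean of the 3 times in whole kidney, 4 in edgeR became 7 with DESeq2 and 1, Vnn1, with library totals only. With the early proximal covariate it was 0, and with 1 kidney left out 3 to 7. Over 48 and 72 h the 4 became 7 with DESeq2, 0 with library totals only, 2 with the covariate, 0 in the fit of all 24 kidneys and 0 to 6 with 1 kidney left out. At 24 h the 0 became 3 with DESeq2, 11 without the kidneys numbered 3 and 4, and 0 to 4 with 1 kidney left out. The difference between times was 6 in place of 0 without those kidneys. In S1 tubules Pex11a made the count 1 in place of 0 at 48 h with DESeq2 and with RLE factors, 1 at 72 h with DESeq2, and 1 for the difference between times with DESeq2. Library totals only, the covariate, and totals counted without mitochondrial genes were chosen after seeing the data. The count for S1 tubules over glomeruli ran from 27 to 31.

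Samples with the same number were not paired by the labels, and a number held in common went with a correlation of deviations over 0.1 in 6 of 12 whole-kidney pairs, 7 of 11 S1 pairs and 2 of 11 glomerular pairs, and in 16 of 23 pairs of S1 and glomerular libraries of the same number. With the replicate block, the whole-kidney counts were 3 over the 3 times, 1 at 24 h and 4 over 48 and 72 h, the S1 over glomeruli count was 31, and the other counts stayed at 0.

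The shallowest segment library in the fits had 2.64 M gene counts, and a miss does not show that the groups are alike.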
